A study of Mus musculus with 12 samples.

Results

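The genes described here are 44 voltage-gated and related plasma membrane ion channels of the mouse. They comprise pore and auxiliary subunits of calcium and sodium channels, several families of potassium channels, the pacemaker cation channels, transient receptor potential (TRP) cation channels and NMDA-type glutamate receptors. They were taken by gene name from the 54022 genes in the deposited tables, and all 44 were found there once. Counts were high enough for testing in 35 of them, and the other 9 are given by their levels alone.

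RNA was sequenced from MIN6 cells, a mouse insulinoma line with properties of the pancreatic β-cell. The cells were exposed for 18 h to vehicle or to 100 nM trimethylamine N-oxide (TMAO), a metabolite formed in the liver from a product of gut bacteria, and received low or high glucose. Each of the 4 conditions (low glucose with vehicle, low glucose with TMAO, high glucose with vehicle and high glucose with TMAO) had 3 libraries, labelled as biological replicates, and all 12 libraries came from this one line. Library totals of fragments assigned to genes ran from 16793162 to 22340542. All 10 β-cell marker genes examined were above 1 FPKM (fragments counted on a gene, scaled to its length and to the library total, which allows genes to be compared). Of 5 α-cell markers, Gcg (216 FPKM) and Ttr (634 FPKM) were also present, and the other 3 were below 1 FPKM. Above 1 FPKM were also 1 of 5 neuronal markers (Eno2, 18.7 FPKM), 1 of 5 leukocyte markers (Cd68, 4.04 FPKM) and 1 of 3 δ- and PP-cell markers (Sst, 1.39 FPKM). None of 5 fibroblast markers (the highest was Col1a1, 0.403 FPKM), 4 endothelial and 4 exocrine markers reached 1 FPKM. Of these lists Hhex, Col3a1, Dcn, Lum, Ptprc, Cd3e, Adgre1, Prss2 and Krt19 were at 0 in every library.

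Pancreatic β-cells are electrically excitable. When glucose is metabolised, ATP-sensitive potassium channels close, the membrane depolarises, voltage-gated calcium channels open and the calcium that enters triggers the release of insulin. Sodium channels contribute to the upstroke of action potentials, voltage-gated and calcium-activated potassium channels repolarise the membrane, and TRP cation channels carry depolarising background currents.

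The channel genes differed more from each other in level than between conditions. The highest was Kcnh6, a potassium channel of the ether-à-go-go-related (ERG) family, at 60.1 ± 4.61 FPKM (mean ± SD, n = 12), above 94.9% of the 16222 genes tested. It was followed by the pacemaker channel Hcn2 (31.4 ± 2.02 FPKM), the L-type calcium channel pore Cacna1c (29.5 ± 2.13 FPKM) and Kcnh2, the other prominent ERG channel (27.5 ± 2.30 FPKM). Of the 44 genes, 6 were above 10 FPKM, 16 between 1 and 10 FPKM and 22 below 1 FPKM, and their median level was 0.962 FPKM. The median of the 35 tested channel genes was 1.91 FPKM, against 5.24 FPKM for all tested genes. Among the 22 genes above 1 FPKM, the highest condition mean exceeded the lowest by a factor of 1.02 to 1.20, with the largest factor for the TRP channel Trpc1. For the 13 tested genes below 1 FPKM the factor was 1.09 to 1.56, with the largest values for Grin2d (1.56), Kcnj3 (1.53) and Cacna2d3 (1.44). In order of level, 36 of the 43 pairs of neighbouring genes had overlapping ranges over the 12 libraries. The ranges did separate Kcnh6 from Hcn2, Grin1 from Cacna2d1, Trpm5 from Trpc1, Kcnh1 from Kcnb2, Scn3b from Scn9a, Scn8a from Cacna1b and Kcna2 from Cacna2d3. FPKM was computed on the whole exonic length listed for a gene, so long genes with many isoforms such as Cacna1c can be understated.

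**Figure D1:**
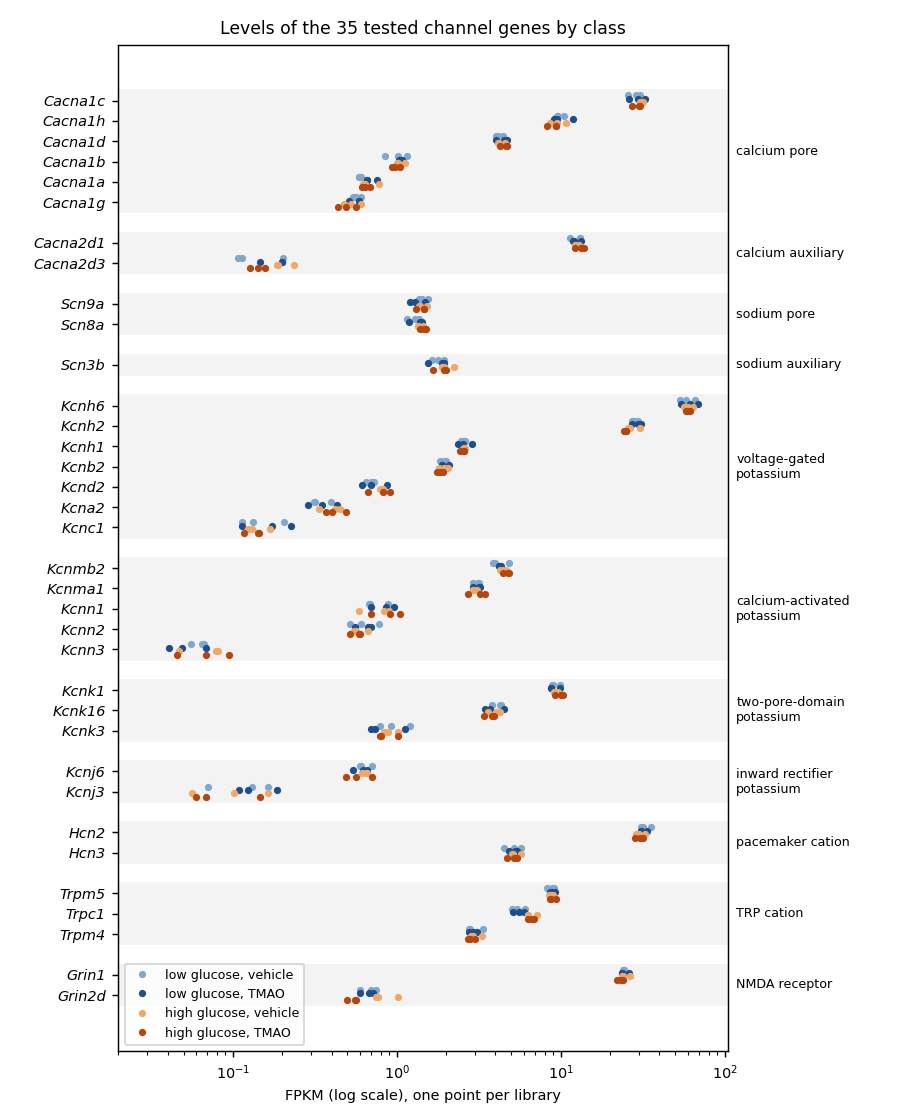
FPKM (log scale) of the 35 tested channel genes, grouped by class, with 1 point for each of the 12 libraries, coloured by condition. Genes span from under 0.1 FPKM (Kcnn3) to 68.8 FPKM (the highest Kcnh6 library), while the 4 colours of most genes lie on top of each other.

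Fold changes below are on the log2 scale and come from edgeR's quasi-likelihood F test on counts, fitted to all 12 libraries. P-values were adjusted by the Benjamini-Hochberg method over all 16222 tested genes, and a gene was called at an adjusted p under 0.05. High against low glucose was compared with vehicle, with TMAO, and as the mean of both, and TMAO against vehicle at low glucose, at high glucose, and as the mean of both. The interaction is the TMAO effect at high minus that at low glucose. These comparisons share libraries and are not independent of each other. In bulk RNA, fewer cells expressing a gene and less RNA per cell cannot be told apart.

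Over all classes, glucose was followed by few calls among the channel genes. With vehicle, 1 of the 35 tested genes was called (Trpc1, 2.86%), against 3.3% of all tested genes. With TMAO, 2 were called (Trpc1 higher and Kcnh2 lower, 5.71%), against 3.64%, and for the mean of both treatments the same 2 genes (5.71%), against 8.19%. The median log2 difference of the 35 genes was 0.025 with vehicle, -0.033 with TMAO and 0.0012 for the mean. Libraries did not overlap between low and high glucose for 3 genes with vehicle, all higher (Cacna1a, Kcnd2 and Trpc1), against 9.08% of all tested genes in that direction. With TMAO they did not overlap for 4 (Trpc1 and Kcnmb2 higher, Kcnh2 and Grin2d lower), against 18.6% in either direction. For both treatments together they did not overlap for Trpc1 alone, which was higher, against 2.59% in that direction.

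TMAO was followed by no call among the 35 channel genes. At low glucose, at high glucose, as the mean of both and for the interaction, edgeR called 0 of 35, and DESeq2 also called 0. Of all tested genes edgeR called 0.00616% at low glucose and 0% in the other 3 comparisons. Genes with an unadjusted p under 0.05 numbered 0 of 35 at low glucose (against 2.2% of all tested genes), 2 at high glucose (Kcnh2 and Grin2d, against 5.35%), 1 for the mean (Grin2d, against 3.62%) and 3 for the interaction (Kcnh2, Grin2d and Cacna2d3, against 3.36%). At high glucose the TMAO and vehicle libraries did not overlap for the same 3 genes named for the interaction, all lower, against 5.68% of all tested genes in that direction. At low glucose they did not overlap for Cacna1a (higher), against 3.15%. The median log2 difference of the 35 genes was 0.022 at low and -0.062 at high glucose, against 0.0011 and 0.00039 for all tested genes.

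The precision of these differences depended on level. For TMAO at high glucose, the 95% interval lay within a 1.5-fold change in either direction for 30 of the 35 genes, and the 5 others (Cacna2d3, Kcnc1, Kcnn3, Kcnj3 and Grin2d) were all below 1 FPKM. For the mean glucose effect it did so for 32, all but Kcnc1, Kcnn3 and Kcnj3. For the 22 genes above 1 FPKM, the interval lay within 1.5-fold in each of the 7 comparisons. For the low genes named here, changes of more than 1.5-fold remained within the interval. The 9 untested genes (Cacna1e, Cacna2d2, Kcnj12, Trpm2, Kcnq1, Grin2c, Kcnd3, Scn3a and Scn2b) had between 2 and 63 counts in total over the 12 libraries. A library listed at 0 allows up to 3 counts, which is 1.34e-05% to 1.79e-05% of a library, and this covers counting error only.

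**Figure D2:**
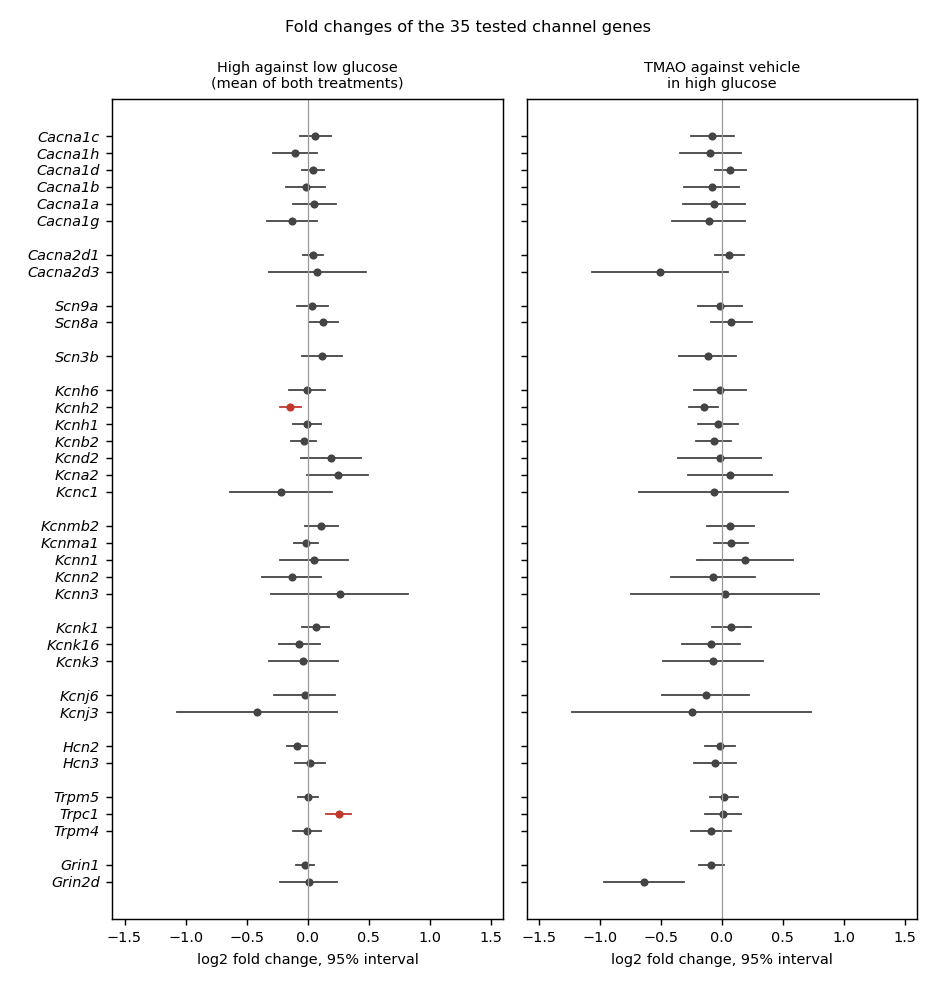
Log2 fold change with its 95% interval for each of the 35 tested channel genes, for high against low glucose (left, mean of both treatments) and TMAO against vehicle in high glucose (right). Red marks an adjusted p under 0.05, reached by Kcnh2 (-0.14) and Trpc1 (0.26) on the left and by no gene on the right.

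The calcium channel pores were led by Cacna1c. It made up 64.5 ± 1.34% of the summed FPKM of the 7 pore genes (n = 12 libraries). Cacna1h, a T-type pore that opens at low voltage, made up 21.1%, and Cacna1d, the other L-type pore, 9.55%. Cacna1b and Cacna1a, the N-type and P/Q-type pores, and the T-type Cacna1g made up 2.23%, 1.43% and 1.18%. Cacna1e, the R-type pore, was close to 0 (0.0165%) and was not tested. Cacna1c in low glucose was 25.8, 28.8 and 30.6 FPKM with vehicle and 26.1, 29.5 and 32.5 FPKM with TMAO, and in high glucose 31.7, 30.4 and 30.8 FPKM with vehicle and 27.3, 30.2 and 30.5 FPKM with TMAO. All 4 conditions overlapped. Its log2 fold change for high glucose (mean of both treatments) was 0.064 (SE 0.056, adjusted p = 0.612, edgeR), and for TMAO at high glucose -0.078 (SE 0.080, adjusted p = 0.946, edgeR). For Cacna1h these differences were -0.11 (SE 0.079) and -0.095 (SE 0.113), and for Cacna1d 0.043 (SE 0.044) and 0.069 (SE 0.063). None of the 6 tested pores was called in any of the 7 comparisons, and the summed level of the 7 genes ranged from 41.3 to 51.5 FPKM over the libraries. Cacna1c lies on the minus strand at chr6:118587240-119196418 (mm10, also called GRCm38).

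**Figure D3:**
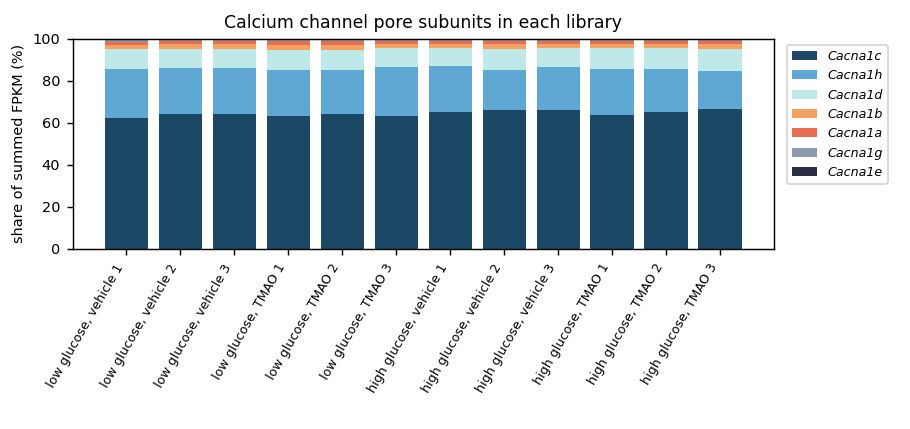
Share (%) of each calcium channel pore gene in the summed FPKM of the 7 pore genes, 1 stacked bar per library. Cacna1c holds between 62.4% and 66.7% of every bar and the order of the 3 largest genes is the same in all 12 libraries.

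Of the α2δ auxiliary subunits, which promote the surface delivery of calcium channel pores, Cacna2d1 made up 98.4% of the summed FPKM and stood at 12.7 FPKM. Its log2 fold change was 0.046 (SE 0.040, adjusted p = 0.584, edgeR) for high glucose and 0.062 (SE 0.056, adjusted p = 0.945) for TMAO at high glucose. Cacna2d3 was low, with 18 to 35 counts per library. In high glucose it stood at 0.190, 0.186 and 0.235 FPKM with vehicle and at 0.157, 0.143 and 0.127 FPKM with TMAO, and the groups did not overlap. That difference was -0.51 on the log2 scale (SE 0.273, adjusted p = 0.910, edgeR) and was not called. Cacna2d2 had too few counts for testing.

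The sodium channel pores Scn9a (1.40 FPKM) and Scn8a (1.36 FPKM) were present at nearly equal levels, with 50.7% and 49.2% of their summed FPKM, and Scn3a was near 0. Scn3b, which codes for a β-subunit that modulates sodium channel gating, was at 1.87 FPKM, whereas the β-subunit Scn2b had counts in only 1 library. No sodium channel gene was called. The log2 difference between high and low glucose was 0.13 for Scn8a (SE 0.058, unadjusted p = 0.0348, adjusted p = 0.200, edgeR), 0.037 for Scn9a (SE 0.063) and 0.11 for Scn3b (SE 0.081). For TMAO at high glucose the differences were 0.077, -0.015 and -0.12, with intervals that all included 0.

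Voltage-gated potassium channels had the highest summed level of the 11 classes, at 93.3 ± 5.64 FPKM. Kcnh6 supplied 64.4% and Kcnh2 29.4% of it. ERG channels, to which both belong, pass current as the membrane repolarises and help to end action potentials. Kcnh1, of the related ether-à-go-go subfamily, followed at 2.56 FPKM and the delayed rectifier Kcnb2 at 1.91 FPKM, whereas Kcnd2, Kcna2 and Kcnc1 lay between 0.149 and 0.757 FPKM. Kcnd3 and Kcnq1 had too few counts for testing. Kcnh6 ranged from 53.2 to 65.8 FPKM in low glucose with vehicle, 54.0 to 68.8 in low glucose with TMAO, 56.6 to 64.1 in high glucose with vehicle and 58.5 to 61.7 in high glucose with TMAO. The ranges of all 4 conditions overlapped, and its log2 difference was -0.0039 (SE 0.067, adjusted p = 0.987, edgeR) for glucose and -0.014 (SE 0.095, adjusted p = 0.996) for TMAO at high glucose.

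In the cells given TMAO, Kcnh2 was lower at high glucose. It lies on the minus strand of chromosome 5 (chr5:24319589-24351604, mm10) and has no exon shared with another annotated gene. In low glucose it stood at 29.5, 27.1 and 28.1 FPKM with vehicle and at 29.6, 27.4 and 31.1 FPKM with TMAO. In high glucose it stood at 30.4, 25.6 and 26.4 FPKM with vehicle and at 25.0, 25.0 and 24.4 FPKM with TMAO. The 3 libraries of high glucose with TMAO were the lowest of all 12, and those of the other conditions overlapped. With TMAO, Kcnh2 fell by 0.24 on the log2 scale in high glucose (SE 0.058, 0.845-fold, adjusted p = 0.0127, edgeR). Two-sided exact permutation of the 6 FPKM values gave p = 0.1, the smallest that 3 against 3 libraries allow. With vehicle the difference was -0.039 (SE 0.058, adjusted p = 0.849, edgeR), and as the mean of both treatments -0.14 (SE 0.041, adjusted p = 0.0283, edgeR; exact permutation over 6 against 6, p = 0.0411). Between low and high glucose with TMAO, 3 of the 8 marker lists also did not overlap in their summed FPKM. The 5 α-cell markers summed to 767 to 861 in low and 876 to 902 in high glucose, the 3 δ- and PP-cell markers to 0.642 to 1.31 and 1.38 to 1.81, and the 5 leukocyte markers to 3.87 to 4.10 and 4.12 to 4.30. Their part in the Kcnh2 result was not tested. The difference between the glucose effects with TMAO and with vehicle was tested directly as the interaction. It was -0.20 (SE 0.082, unadjusted p = 0.0189, adjusted p = 1.000, edgeR), so the glucose effect was not shown to depend on TMAO. At high glucose every TMAO library was below every vehicle library for Kcnh2, with a log2 difference of -0.15 (SE 0.058, unadjusted p = 0.0160, adjusted p = 0.910, edgeR), which was not called.

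The Kcnh2 calls depended on single libraries. With TMAO, the call was lost without low glucose with TMAO replicate 1 (adjusted p = 0.0527, edgeR) or 3 (0.0778) and without high glucose with TMAO replicate 3 (0.0793). For the mean of both treatments it was lost without low glucose with vehicle replicate 1 (0.0897), low glucose with TMAO replicates 1 (0.0579) and 3 (0.0651), high glucose with vehicle replicates 2 (0.0940) and 3 (0.0906), and high glucose with TMAO replicates 1 (0.0544), 2 (0.0539) and 3 (0.0774). The direction stayed negative in all of these fits, between -0.29 and -0.20 with TMAO and between -0.18 and -0.12 for the mean. With limma on log2 FPKM the adjusted p was 0.0888 or 0.088 with TMAO and 0.0969 or 0.0954 for the mean, depending on the pseudocount.

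The sequences upstream of the called genes and of Kcnh6, the channel gene with the highest level, are given for context. RefSeq sequences on GRCm38.p6 were matched by symbol for 33 of the 44 genes, with 39 promoters, and each shown here runs from 250 bases before to 30 bases after the listed start, 5′ to 3′ on the strand of the gene. Capitals mark the core of the cAMP response element (TGACG or its reverse CGTCA) and the GC box (GGGCGG or its reverse CCGCCC). The 11 genes not matched were Trpm4, Scn3a, Kcnq1, Cacna1g, Kcnn2, Kcnk3, Cacna1h, Hcn3, Scn3b, Cacna1a and Kcnb2.
Kcnh6: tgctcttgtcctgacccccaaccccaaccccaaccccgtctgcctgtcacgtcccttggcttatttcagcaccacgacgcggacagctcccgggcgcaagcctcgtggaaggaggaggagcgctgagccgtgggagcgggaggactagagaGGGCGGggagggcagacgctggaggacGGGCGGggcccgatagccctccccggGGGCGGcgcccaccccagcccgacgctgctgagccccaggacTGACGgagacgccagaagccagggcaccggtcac
Kcnh2: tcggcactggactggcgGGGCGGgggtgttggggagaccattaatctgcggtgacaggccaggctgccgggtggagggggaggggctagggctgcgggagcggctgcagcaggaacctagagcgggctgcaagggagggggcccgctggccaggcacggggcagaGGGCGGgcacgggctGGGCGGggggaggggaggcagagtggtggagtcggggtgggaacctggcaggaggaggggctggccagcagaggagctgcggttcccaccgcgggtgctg
Trpc1: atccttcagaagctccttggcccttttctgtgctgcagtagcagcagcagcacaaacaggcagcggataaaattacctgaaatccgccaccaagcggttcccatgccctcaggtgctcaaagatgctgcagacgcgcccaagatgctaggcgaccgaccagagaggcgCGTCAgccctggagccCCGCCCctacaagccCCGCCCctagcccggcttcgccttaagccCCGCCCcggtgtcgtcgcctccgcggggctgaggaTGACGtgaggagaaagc
The Kcnh6 sequence lies at chr11:106007898-106008177 on the plus strand, with TGACG at -4 and GC boxes at -99, -72 and -46 from the start. The Kcnh2 sequence lies at chr5:24329562-24329841 on the minus strand, and its listed start is 22.0 kb inside the gene as the count table outlines it. It holds GC boxes at -233, -85 and -70 and no TGACG. The Trpc1 sequence lies at chr9:95750319-95750598 on the minus strand, with the cAMP response element core at -82 (as CGTCA) and 14 (as TGACG) and GC boxes at -66, -51 and -22 (as CCGCCC). Over the 39 promoters of the channel genes, 23.1% held TGACG on either strand, against 19.9% of all 32851 RefSeq mouse promoters of the same length. GC boxes were found in 51.3% against 34.7%, and the E-box CACGTG, which reads the same on both strands, in 2.56% against 6.79%. The median GC content was 62.9% against 52.5%. These are matches of letters only, and occupancy was not measured.

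Calcium-activated potassium channels, which open as intracellular calcium rises, were led by Kcnmb2 (4.40 FPKM), a β-subunit of the large-conductance channel, and by the pore of that channel, Kcnma1 (3.07 FPKM). The small-conductance pores Kcnn1 and Kcnn2 were at 0.811 and 0.608 FPKM and Kcnn3 at 0.0635 FPKM. None of the 5 was called. For Kcnmb2 the log2 difference was 0.11 (SE 0.067, adjusted p = 0.375, edgeR) for glucose and 0.069 (SE 0.094) for TMAO at high glucose. For Kcnma1 these were -0.018 (SE 0.048) and 0.076 (SE 0.068).

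The 44 genes held 3 tandem-pore-domain channels, which pass background potassium current. They were Kcnk1 (9.39 FPKM, 66.1% of the sum of these 3), Kcnk16 (3.92 FPKM, 27.6%), a member known for its expression in the pancreas, and Kcnk3 (0.901 FPKM, 6.31%). Kcnk9, of the same family but outside the 44, stood at 9.49 to 12.1 FPKM over the libraries. The differences of the 3 members were small and none was called. Kcnk1 differed by 0.064 (SE 0.055) for glucose and 0.077 (SE 0.078) for TMAO at high glucose on the log2 scale, and Kcnk16 by -0.068 (SE 0.082) and -0.092 (SE 0.117). Of the inward rectifiers, Kcnj6 (0.618 FPKM) and Kcnj3 (0.115 FPKM, 6 to 19 counts per library) form G protein-gated channels, and Kcnj12 had too few counts for testing. Kcnj6 differed by -0.025 (SE 0.122) for glucose and -0.13 (SE 0.174) for TMAO at high glucose. Kcnj3 differed by -0.42 (SE 0.321, 95% interval -1.07 to 0.24) for glucose and -0.25 (SE 0.479) for TMAO at high glucose.

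The pacemaker channels among the 44 genes, which open on hyperpolarisation, were Hcn2 (31.4 FPKM, 85.8% of the sum of both genes) and Hcn3 (5.19 FPKM). Hcn4, of the same family but outside the 44, stood at 13.7 to 18.0 FPKM over the libraries. Hcn2 was 35.7, 31.8 and 30.8 FPKM in low glucose with vehicle and 33.8, 31.1 and 30.9 FPKM with TMAO, and in high glucose 32.9, 28.9 and 29.9 FPKM with vehicle and 31.8, 30.4 and 28.6 FPKM with TMAO. The glucose groups overlapped, and the log2 difference of -0.087 (SE 0.042, unadjusted p = 0.0473, adjusted p = 0.240, edgeR) was not called. For TMAO at high glucose Hcn2 differed by -0.015 (SE 0.060) and Hcn3 by -0.056 (SE 0.085). Hcn3 shares 711 bases of exon, 17.1% of its exonic length, with Pklr on the opposite strand. Pklr had a mean of 616 counts against 409 for Hcn3, and the strand setting of the counting is not given in the sources used here, so the Hcn3 level is uncertain.

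Among TRP cation channels, Trpc1 was higher in high glucose with either treatment. Trpc1, a subunit of receptor-operated and store-dependent cation channels, lies on the minus strand at chr9:95705082-95750375 (mm10), and its exons overlap no other annotated gene. In low glucose it stood at 5.04, 5.38 and 6.05 FPKM with vehicle and at 5.12, 6.02 and 5.57 FPKM with TMAO. In high glucose it stood at 6.29, 6.29 and 7.16 FPKM with vehicle and at 6.29, 6.65 and 6.92 FPKM with TMAO. Every high-glucose library was above every low-glucose library. Trpc1 rose by 0.26 on the log2 scale with vehicle (SE 0.071, adjusted p = 0.0344, edgeR) and by 0.25 with TMAO (SE 0.071, adjusted p = 0.0432, edgeR). As the mean of both, the rise was 0.26 (SE 0.050, 95% interval 0.15 to 0.36, 1.19-fold, adjusted p = 0.000836, edgeR). The two-sided exact permutation p for the FPKM was 0.00216 over 6 against 6 libraries and 0.1 within each treatment, in each case the smallest the design allows. Of the marker lists, the summed FPKM of the 5 leukocyte markers also did not overlap between low (2.88 to 4.10) and high glucose (4.12 to 4.86), through Cd68, with Ptprc, Cd3e and Adgre1 at 0 in every library. With vehicle, the summed α-cell markers (791 to 846 in low and 853 to 911 in high glucose), neuronal markers (17.3 to 19.4 and 19.9 to 22.0) and β-cell markers (40968 to 44497 and 44709 to 46278) did not overlap either, and with TMAO the α-cell and the δ- and PP-cell sums given for Kcnh2 did not. The part of these genes in the Trpc1 result was not tested. With TMAO against vehicle Trpc1 differed by 0.021 (SE 0.072) at low and 0.0090 (SE 0.070) at high glucose.

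The mean glucose effect on Trpc1 was called in all 12 fits that left out a single library, with log2 differences from 0.22 to 0.29, and under all 7 other settings, limma included. Within a treatment the call was less stable. With vehicle it was lost without low glucose with vehicle replicate 1 (adjusted p = 0.242, edgeR) or 2 (0.168) and without high glucose with vehicle replicate 3 (0.288). With TMAO it was lost without low glucose with TMAO replicate 1 (0.251) or 3 (0.111) and without high glucose with TMAO replicate 1 (0.0519), 2 (0.145) or 3 (0.225). It was also lost with TMAO where at least 10 counts were required in every library (0.0513), and in both treatments with limma (0.164 with vehicle and 0.177 with TMAO).

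The other TRP channels were Trpm5 (8.82 FPKM) and Trpm4 (2.94 FPKM), both monovalent cation channels opened by intracellular calcium. Trpm2, opened by ADP-ribose, had too few counts for testing. Trpm5 differed by 0.0012 (SE 0.040) for glucose and 0.019 (SE 0.057) for TMAO at high glucose. Tssc4, on the opposite strand, shares 220 bases of exon with Trpm5 (3.44%) and had a mean of 4031 counts against 1067, so the Trpm5 level is uncertain for the same reason as that of Hcn3. Trpm5 lies 11.7 kb from Kcnq1 on chromosome 7, the closest pair among the 44 genes, and the levels of that pair were 8.82 and 0.0134 FPKM.

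Of the 3 NMDA receptor genes among the 44, Grin1, the obligatory subunit, stood at 24.1 FPKM and made up 97.2% of their sum. Of the subunits that modify its gating, Grin2d was at 0.681 FPKM and Grin2c had too few counts for testing. Outside the 44, Grin3b ranged from 0.762 to 1.23 FPKM and Grin3a from 0.249 to 0.413 FPKM over the libraries. Grin1 differed by -0.024 (SE 0.035) for glucose and -0.088 (SE 0.050, adjusted p = 0.914, edgeR) for TMAO at high glucose. Grin1os, an antisense gene, covers 13.5% of its exonic length with a mean of 115 counts against 4427 for Grin1, and reads of the pair cannot be told apart where they overlap unless strand was used in counting. Grin2d showed the largest difference of the 35 tested genes for TMAO at high glucose, though it was not called. In low glucose it was 0.600, 0.746 and 0.700 FPKM with vehicle and 0.673, 0.593 and 0.714 FPKM with TMAO, and in high glucose 1.02, 0.744 and 0.765 FPKM with vehicle and 0.500, 0.556 and 0.561 FPKM with TMAO. In high glucose the TMAO libraries were below all vehicle libraries, with 56 to 83 counts against 87 to 127, and in low glucose the groups overlapped. The log2 difference was -0.64 at high glucose (SE 0.161, unadjusted p = 0.000422, adjusted p = 0.910, edgeR) and -0.048 at low glucose (SE 0.160). Left without high glucose with vehicle replicate 1, the highest library, it was -0.48. The interaction was -0.59 (SE 0.227, unadjusted p = 0.0143, adjusted p = 1.000, edgeR). Grin2d shares 9.66% of its exonic length with the antisense gene Gm45441, which had a mean of 3.92 counts.

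**Figure D4:**
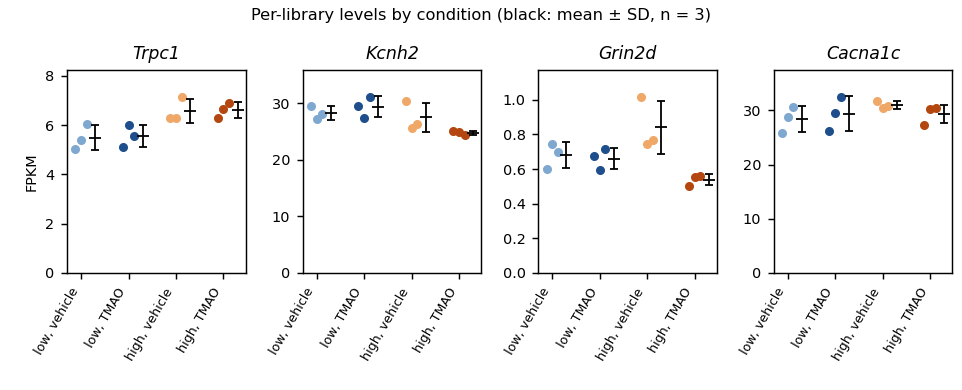
FPKM of Trpc1, Kcnh2, Grin2d and Cacna1c by condition, 1 point per library, with the condition mean and SD in black (n = 3). The high-glucose points of Trpc1 (6.29 to 7.16) lie above all low-glucose points, the high-glucose TMAO points of Kcnh2 (24.4 to 25.0) and Grin2d (0.500 to 0.561) lie below those of the other conditions, and the Cacna1c conditions overlap.

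The channel genes were long. Their median span was 88.2 kb, from 7.82 kb (Kcnk16) to 816.9 kb (Cacna2d3), against 24.4 kb for 12622 protein-coding genes with a mean of at least 10 counts. That count filter was not applied to the 44 genes, so the untested ones are included in their medians. The median exonic length was 7988.5 bases against 4385. Coordinates in the tables equalled those of GENCODE M21 on GRCm38 for 43 of the 44.

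A list of 116 further genes of the same channel families was examined beside them, of which 47 were tested. The highest were Kcnip3, a calcium-binding partner of voltage-gated potassium channels (29.7 FPKM), the pacemaker channel Hcn4 (16.1 FPKM) and Kcnk9 (10.7 FPKM), while 13 of the 116 had no count in any library. For glucose with vehicle edgeR called 0 of the 47, against 3.3% of all tested genes, and DESeq2 also called 0. With TMAO and as the mean of both treatments 2 of the 47 (4.26%) were called, against 3.64% and 8.19% of all tested genes. Kcnj8, a pore of ATP-sensitive potassium channels known from muscle and vessels, rose by 1.28 as the mean (SE 0.303, adjusted p = 0.00521, edgeR) on 4 to 14 counts per library in low and 11 to 22 in high glucose. With TMAO it rose by 1.87 (SE 0.438, adjusted p = 0.0101, edgeR), and without high glucose with TMAO replicate 1 that adjusted p was 0.0567. Hcn4 fell by 0.15 as the mean (SE 0.043, adjusted p = 0.0276, edgeR) and by 0.21 with TMAO (SE 0.061, adjusted p = 0.0482, edgeR). The mean call of Hcn4 was lost without low glucose with vehicle replicate 1 (0.0661), low glucose with TMAO replicate 1 (0.0501) or 3 (0.0631), high glucose with vehicle replicate 2 (0.0851) or 3 (0.0904), or high glucose with TMAO replicate 1 (0.0516) or 3 (0.0919). The call with TMAO remained only in the fit without low glucose with TMAO replicate 2, and without any of the other 5 libraries the adjusted p ran up to 0.266. TMAO was followed by 0 calls among the 47 by edgeR and by DESeq2, with 0 to 3 genes at an unadjusted p under 0.05 in the 4 comparisons, against 2.2% to 5.35% of all tested genes.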

How the data were processed

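Poly-A RNA from MIN6 cells was sequenced as 150 bp paired-end reads, 12 libraries in all. The submitters' processing notes name HISAT2 2.0.5, featureCounts 1.5.0-p3, DESeq2 1.16.1 and the build mm10. The authors deposited raw counts per gene without normalization, and FPKM values, which equalled count divided by gene length and library total within 1.35%. Each library's condition came from its label. Counts were tested with edgeR 4.0.16 in R 4.3.3 (filterByExpr, TMM, robust quasi-likelihood F test, 4 condition means). The standard error is the log2 fold change divided by the square root of F. Alternatives were DESeq2 1.42.0 (Wald test) or its size factors in edgeR, no filter, a minimum of 10 counts per library, a fit restricted to the compared libraries, a replicate block, and leaving out each library. As a further alternative, limma 3.58.1 was run on log2(FPKM + 1) and on log2(FPKM + 0.1) behind the same filter. With a pseudocount, fold changes of low genes are understated. Levels were FPKM. Within a condition, no 2 libraries agreed as closely as repeat draws from 1 library would (chi-square per gene 2.44 to 6.87). The genes, their classes and the further channel genes were chosen with earlier results of these data known. The text names, with fold changes, every called gene and the first 2 tested genes of each class by level, and the other genes singled out were chosen after their values were seen. The scripts were tested on simulated counts. No protein sequences were used, and some genes are not reported here.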

Additional observations from a re-analysis of the deposited data

How the results depend on the processing

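Over the processing alternatives, 899 of 988 fold changes of single genes kept their direction and their side of the threshold, 47 kept their direction and lost the call, and 42 changed sign. With limma on log2(FPKM + 1) and on log2(FPKM + 0.1), the channel genes called for glucose numbered 0 and 0 with vehicle, 0 and 0 with TMAO and 1 and 1 (Trpc1) for the mean, and of the further channel genes 1 and 1 with TMAO and 1 and 1 for the mean (Kcnj8 in each case). Where at least 10 counts were required in every library, the channel genes called with TMAO numbered 1 (Kcnh2), and the further genes 0 with TMAO and 1 (Hcn4) for the mean. Kcnj8 was then not tested, and Hcn4 with TMAO was no longer called (adjusted p = 0.0555, edgeR). DESeq2 called 1 further gene with TMAO, Kcnj8 having no adjusted p.

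Leaving out single libraries, the channel genes called for glucose ranged from 0 to 1 with vehicle, from 0 to 2 with TMAO and from 1 to 2 for the mean, and the further genes from 0 to 2 with TMAO and from 1 to 3 for the mean. Over the same fits log2 differences that were not called changed sign. For TMAO at low glucose these were Trpc1 (-0.039 to 0.097) and Grin2d (-0.13 to 0.024). For TMAO at high glucose they were Trpc1 (-0.023 to 0.072), Scn9a (-0.045 to 0.036), Kcnh6 (-0.059 to 0.034), Kcnj3 (-0.73 to 0.21), Hcn2 (-0.055 to 0.043), Hcn3 (-0.10 to 0.0062) and Trpm5 (-0.017 to 0.045). For glucose they were Kcnh2 with vehicle (-0.12 to 0.0092) and, as the mean, Kcnh6 (-0.046 to 0.039), Cacna2d3 (-0.0029 to 0.25), Kcnma1 (-0.052 to 0.029), Kcnj6 (-0.096 to 0.028), Hcn3 (-0.020 to 0.060), Trpm5 (-0.021 to 0.017) and Grin2d (-0.069 to 0.052). Without a filter on low counts the Trpm5 value was -0.0057.

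Same-numbered libraries deviated together only weakly on average (mean correlation 0.033 over 18 pairs, above 0.1 in 2). Those 2 pairs both joined low glucose with vehicle to low glucose with TMAO (replicate 1, 0.213, and replicate 3, 0.147). The highest correlation between libraries of other numbers was 0.0862. Whether the numbers pair the samples was not settled by this, and the main fit treated the libraries as unpaired. With the replicate number as a block, the same channel genes were called in all comparisons, the further genes called numbered 4 for the mean (Cacng7, Kcnj8, Hcn4 and Trpm7), and the Kcnh6 glucose difference was 0.0016. The cause of these changes was not tested except where given. The 44 levels moved by less than the spread between libraries when rescaled by TMM. With 3 libraries per condition, changes of genes below 1 FPKM are the least well measured.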
